A study of Mus musculus with 6 samples.

Results

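Slc39a13, the gene that encodes the zinc transporter ZIP13, was examined together with 8 genes that lie close to it on mouse chromosome 2, in inguinal white adipose tissue (iWAT) of WT and Zip13-KO mice. The 9 genes were taken by name and place on the chromosome, by a list set with earlier results of these data known, and every probe whose accession is a RefSeq transcript of one of them was read. They held 14 probes, and all 9 were among the 15302 genes tested. In the order of the chromosome the genes are Celf1, Rapsn, Slc39a13, Spi1, Mybpc3, Madd, Nr1h3, Acp2 and Ddb2. Psmc3, a proteasome subunit gene that is not on the list, lies between Rapsn and Slc39a13.

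RNA of the subcutaneous inguinal fat pad was hybridized to 6 Agilent 1-colour arrays, 3 of WT and 3 of Zip13-KO mice, aged 10 weeks by the study's figure legend and on a C57BL/6J background. In the Zip13-KO allele a Neo cassette stands in place of exons 6 to 8 of Slc39a13, between exons 5 and 9, and the deletion is present in every tissue. The WT mice were littermates. All animals received powdered feed, because the mutants have missing teeth, and the labels name a standard and a high-fat food without saying which these mice ate. The allele was made in R1 cells, an embryonic stem cell line from a strain other than C57BL/6J, and the mice were backcrossed for at least 7 generations. How much chromosome from the R1 cells still flanks the allele is not stated in the sources used here, so loss of ZIP13, the inserted cassette and inherited flanking sequence cannot be told apart as sources of a difference in a neighbouring gene. The labels do not say whether each array stands for a separate animal, so the p values below measure the spread between arrays, which may be technical.

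ZIP13 belongs to the SLC39 family, whose members move zinc into the cytoplasm from outside the cell or from compartments such as the Golgi apparatus. Its loss causes a connective tissue disorder in humans and mice. The genes around it share a place and not a pathway. Spi1 encodes PU.1, an ETS transcription factor that drives the development of macrophages, other myeloid cells and B cells, and Nr1h3 encodes LXRα, a nuclear receptor for oxysterols that acts on cholesterol and fatty acid genes. Mybpc3 encodes the cardiac form of myosin-binding protein C, Rapsn encodes rapsyn, which gathers acetylcholine receptors under the nerve ending on muscle, and Acp2 encodes a lysosomal acid phosphatase. Ddb2 encodes a sensor of ultraviolet damage in DNA, Madd an exchange factor for Rab3 proteins that also binds a receptor for tumor necrosis factor, and Celf1 an RNA-binding protein that acts on splicing and mRNA decay.

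The sequence just before the start of transcription is shown for Slc39a13 and Mybpc3, which were lower in Zip13-KO iWAT, and for Acp2 and Celf1, which did not pass the threshold, so that the promoters can be read beside the values. These are the 4 genes with bases upstream of every annotated start in the windows used. RefSeq promoter windows of the GRCm38.p6 assembly, from 250 bases before to 50 after each start, were found for 6 of the 9 genes; Spi1, Rapsn and Ddb2 were not matched. Only the bases upstream of every annotated start of the gene are printed, 5′ to 3′ on the gene's own strand, and capitals mark the ETS-type motif CGGAAG or, read from the other strand, CTTCCG in the first 3 genes and forms of the metal response element, given after the sequences, in Celf1.
Slc39a13, chr2:91070442-91070565, minus strand: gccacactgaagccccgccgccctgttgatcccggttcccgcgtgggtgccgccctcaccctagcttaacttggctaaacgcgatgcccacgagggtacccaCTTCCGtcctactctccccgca
Mybpc3, chr2:91117894-91118113, plus strand: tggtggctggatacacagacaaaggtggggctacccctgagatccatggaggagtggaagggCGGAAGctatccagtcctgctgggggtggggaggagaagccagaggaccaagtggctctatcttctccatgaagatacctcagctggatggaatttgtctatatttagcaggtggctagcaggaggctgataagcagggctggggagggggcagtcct
Acp2, chr2:91202662-91202811, plus strand: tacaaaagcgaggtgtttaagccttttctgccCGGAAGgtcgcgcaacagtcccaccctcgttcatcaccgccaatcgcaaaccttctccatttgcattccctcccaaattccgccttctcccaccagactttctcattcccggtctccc
Celf1, chr2:90940147-90940258, plus strand: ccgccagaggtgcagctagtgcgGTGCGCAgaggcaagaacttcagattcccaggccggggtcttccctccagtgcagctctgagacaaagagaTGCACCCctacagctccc
Searched on both strands of the 300-base windows, CGGAAG was found in Slc39a13, Mybpc3 and Acp2 and in 16.9% of all 32851 mouse promoter windows. The longer motif GAGGAAG, which PU.1 can bind, was found in 1 of the windows of Nr1h3 alone among the matched genes, against 13.6% of all windows. The metal response element forms TGCACNC and TGCGCNC stood in 12.6% and 15.4% of all windows. TGCACNC was in the windows of Slc39a13, Madd and Celf1, and TGCGCNC was in that of Celf1. These matches describe letters in the windows, and binding was not measured here.

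A gene was called when its adjusted p from limma (Benjamini-Hochberg, over all genes tested) was under 0.05 and its change exceeded 1.5-fold, 0.58 on the log2 scale. Levels are normalized log2 intensities of the gene's brightest probe, and differences are Zip13-KO minus WT, so that a difference of -1 is a halving. Of the 9 genes, Slc39a13, Spi1 and Mybpc3 fell and none rose. Over all genes tested, 8.38% were called lower and 10.3% were called higher. Leaving aside Slc39a13, which carries the deletion, 2 of 8 genes were called. Mybpc3 was kept for testing through its WT arrays alone. With all 6 arrays required above background, Mybpc3 was not tested and 2 of the 9 genes were called lower. By limma, 1 of the 9 was higher at an unadjusted p under 0.05 (Nr1h3), against 25.3% of all genes tested. When every probe was tested, 4 of the 14 probes were called lower and 1 higher, against 7.13% and 8.35% of all 33033 probes. The median difference of the 9 genes was -0.19 against -0.00051 over all genes tested. All 3 Zip13-KO arrays lay below all 3 WT arrays in 5 of the 9 genes and above them in 1. The same held in 25.9% of all genes tested for lower values and in 29.2% for higher values.

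**Figure D1:**
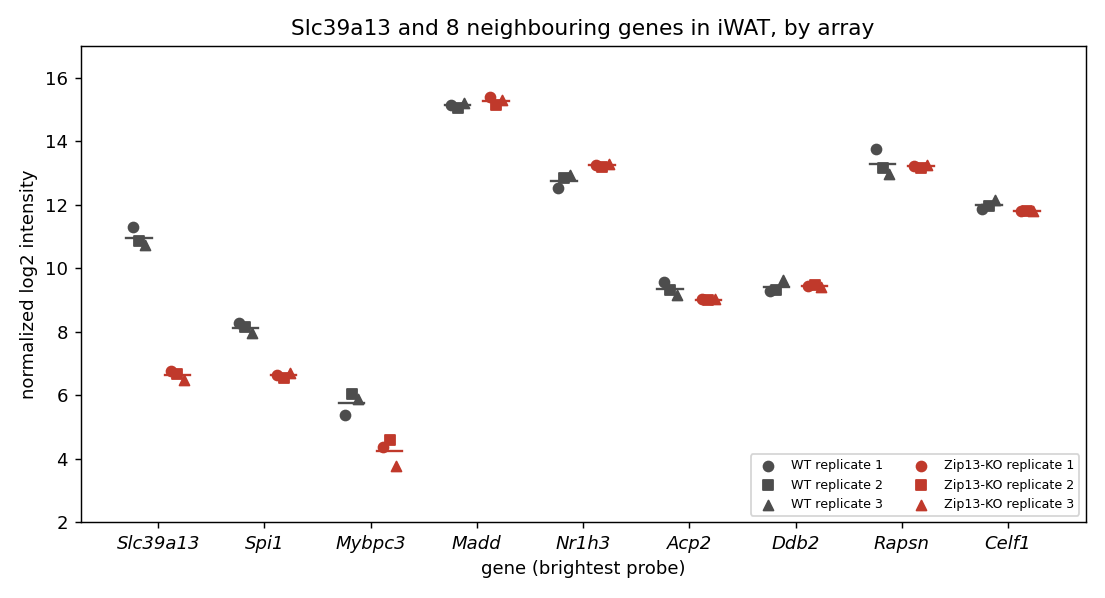
Normalized log2 intensity of the brightest probe of Slc39a13 and 8 neighbouring genes, 1 point per array with WT in grey and Zip13-KO in red, marker shapes for replicates 1 to 3 and a short line at each genotype mean (n = 3). Genotypes do not overlap in Slc39a13, Spi1, Mybpc3, Acp2 and Celf1, where Zip13-KO is lower, or in Nr1h3, where it is higher. In Madd, Ddb2 and Rapsn they overlap. Heights are not to be compared between genes, which were read by different probes.

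Depth went with the genotype. The median processed signal was 39.19 to 40.6 intensity units on the WT arrays and 33.17 to 35.02 on the Zip13-KO arrays, without overlap. Each array held 59305 spots that were not controls, of which 62.5% to 63.2% were well above background in WT and 58.8% to 60.4% in Zip13-KO, and no spot was saturated. The part of this in the differences below was not tested. All 6 arrays lay on 1 slide. Column 1 held WT and the first replicate of Zip13-KO, and column 2 held the other 2 Zip13-KO arrays, so the slide column goes partly with the genotype. The smallest two-sided p of an exact permutation test over these arrays is 0.1, and it was 0.1 for every gene below whose genotypes did not overlap. The adipocyte markers fitted the labelled tissue: all 9 of 9 (Adipoq, Lep, Plin1, Cidec, Fabp4, Pparg, Lpl, Retn and Cfd) were well above background on every array.

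Slc39a13 was measured by 1 probe (A_55_P1973668, transcript NM_001290765). Its normalized log2 intensity was 11.29, 10.87 and 10.72 on the WT arrays and 6.76, 6.66 and 6.47 on the Zip13-KO arrays. The highest Zip13-KO array was far below the lowest WT array. The difference was -4.33 (SE 0.17, 95% confidence interval -4.74 to -3.92, adjusted p = 0.00128 from limma), a 20.1-fold fall to 4.97% of WT. The signal was not zero in the mutants. Before normalization the processed signal, from which the scanner software had already subtracted background, was 2538, 2013 and 1832 intensity units in WT and 99.1, 93.5 and 82.3 in Zip13-KO, and the spot was flagged well above background on all 6 arrays. The local background beside the spot was 31 to 48 units. The files do not place the probe against exons 6 to 8, so the remaining signal cannot be assigned to transcripts with or without the deleted exons. Within slide column 1, which holds 3 WT arrays and 1 Zip13-KO array, the difference was -4.19 with an adjusted p of 0.0512, and the lone Zip13-KO array was then assumed to vary like the WT arrays.

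The other SLC39 zinc transporters differed by less. Of 13, 11 were tested, and 1 fell and none rose; the largest fall was that of Slc39a6, a transporter of the plasma membrane, at -0.73 (adjusted p = 0.0201 from limma), and the highest value was 0.53 for Slc39a8, which did not pass the fold threshold. Their median difference was -0.15. Over all genes tested, 8.38% were called lower and 10.3% were called higher. Slc39a14 stood at -0.54, Slc39a7, which resides in the endoplasmic reticulum, at -0.32, and Slc39a9 at -0.20. None of the 10 other than Slc39a6 changed by more than 1.5-fold.

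Spi1, the next gene along the chromosome, was read by probe A_52_P498086 (NM_011355). Its level was 8.27, 8.14 and 7.97 on the WT arrays and 6.63, 6.56 and 6.71 on the Zip13-KO arrays. The genotypes were far apart and the spread within each was small. Spi1 fell 2.82-fold in Zip13-KO iWAT (difference -1.50, SE 0.10, 95% confidence interval -1.74 to -1.25, adjusted p = 0.00331 from limma). No array was near background at this spot, with processed signals of 275 to 323 units in WT and 87.2 to 96.6 units in Zip13-KO. The size still depended on the background correction. It was -1.045 with a normexp correction and -1.16 with none, and Spi1 was called lower in both. With the slide column as a term of the model the difference was -1.50 (adjusted p = 0.0578), and within column 1 it was -1.50 (adjusted p = 0.142), so the size held and the call did not.

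Genes that PU.1 is known to regulate in myeloid cells were mostly lower as well. Of 24 such genes, all tested, 18 fell and 1 rose, with a median difference of -0.87. Over all genes tested, 8.38% were called lower and 10.3% higher. The largest fall was that of Cd68, a macrophage endosomal protein, at -1.87 (adjusted p = 0.00775 from limma). Fcer1g and Tyrobp, adaptors of activating immune receptors, fell by 1.69 and 1.48, and Cybb, the catalytic subunit of the phagocyte oxidase, fell by 1.26. Csf1r, the receptor that keeps macrophages alive, fell by 1.03. The gene that rose was Cebpa (0.82, adjusted p = 0.0279), which is also a major transcription factor of adipocytes. Csf3r, the receptor of granulocyte growth factor, stood at 0.01 and Itgam at -0.17, and neither passed the test.

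The macrophage markers moved with Spi1. Of 10 markers, all well above background on every array, 8 fell, against 8.38% of all genes tested. Cd163 (-0.56) and Itgam (-0.17) did not pass the threshold. Adgre1, Cd68, Csf1r, Itgam, Mpeg1 and Lyz2 also stand in the list of genes that PU.1 regulates, so the counts of these lists are not separate results. The summed level of all 10 macrophage markers, on a linear scale of normalized intensity, was 157239, 114166 and 99607 on the 3 WT arrays. On the 3 Zip13-KO arrays it was 52270, 46364 and 60635. Among the WT arrays replicate 1 was the highest and replicate 3 the lowest, as for Spi1 and Slc39a13. Of the 7 B and T lymphocyte markers none passed the fold threshold, all were below 0 with an unadjusted p under 0.05 from limma, and their median was -0.41. Of all genes tested, 47.2% had an unadjusted p under 0.05 in either direction. In a bulk tissue, fewer cells of a type and less RNA per cell cannot be told apart, and the part of macrophage content in the difference of Spi1 was not tested.

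Mybpc3 was a dim gene on these arrays. Its probe (A_55_P2011862, NM_008653) read 5.36, 6.05 and 5.89 in WT and 4.37, 4.58 and 3.76 in Zip13-KO. The genotypes did not overlap, and Zip13-KO replicate 3 was the lowest. Mybpc3 fell 2.89-fold (difference -1.53, SE 0.27, 95% confidence interval -2.18 to -0.89, adjusted p = 0.0106 from limma). The processed signals were 43.6, 73.0 and 64.1 units in WT and 18.5, 22.8 and 12.7 in Zip13-KO, where 2 of 3 arrays were well above background. The probe was therefore kept for testing through its WT signal alone. The size depended on the background correction: it was -0.64 with none and -0.50, under the fold threshold, with a normexp correction. With the slide column as a term it was -1.40 (adjusted p = 0.0992), and within column 1 it was -1.41 (adjusted p = 0.148).

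No marker of striated muscle fell beside Mybpc3. Of 11 skeletal muscle markers 10 were tested, none passed the test (0 with an unadjusted p under 0.05 from limma), and all 10 differences were above 0, from 0.15 for Mylpf to 1.15 for Ckm, the muscle creatine kinase. Mybpc1 and Mybpc2, the skeletal forms of myosin-binding protein C, stood at 0.39 and 0.47. The summed level of the skeletal markers ranged from 1949 to 4267 in WT and from 2492 to 8720 in Zip13-KO, and the ranges overlapped. Of 6 cardiac markers, Myh6, Myl7 and Ryr2 were not well above background on all 3 arrays of either genotype, and the 3 tested (Nppa -0.28, Tnni3 -0.13 and Tnnt2 0.31) did not pass the test, 1 of them with an unadjusted p under 0.05 from limma.

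Nr1h3 went the other way. Its brightest probe (A_66_P120249, NM_013839) read 12.52, 12.83 and 12.92 in WT and 13.24, 13.20 and 13.29 in Zip13-KO, with every Zip13-KO array above every WT array. The difference was 0.49 (SE 0.12, 95% confidence interval 0.20 to 0.77, adjusted p = 0.025 from limma), or 1.40-fold, which is under the 1.5-fold threshold, so Nr1h3 was not called. A second probe for the same transcript (A_55_P2128597) read 11.65, 12.05 and 12.11 in WT and 12.44, 12.44 and 12.57 in Zip13-KO, a difference of 0.55 (adjusted p = 0.0343 over all probes tested). Scaling each array by its 75th percentile in place of quantile normalization gave 0.60, which passed the threshold. With the slide column as a term the difference was 0.49 (adjusted p = 0.153 from limma), and with a replicate block the adjusted p was 0.0528. Leaving out any Zip13-KO array gave an adjusted p of 0.0709 to 0.0789 from limma. WT replicate 1 was the lowest array at both probes, and without it the difference was 0.37.

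Genes that LXR acts on, and its partners, did not share 1 direction. Of 20 listed, 18 were tested, with a median of 0.09. Among them 4 rose and 2 fell, against 10.3% called higher and 8.38% called lower over all genes tested. Those that rose belong to fatty acid synthesis: Fasn, fatty acid synthase, by 1.74 (adjusted p = 0.0142 from limma), Srebf1, their main activator, by 1.29, Mlxipl, which encodes ChREBP, by 1.25 and Scd1, the stearoyl-CoA desaturase, by 0.97. The largest fall was that of Cd5l, a protein secreted by macrophages, at -3.51 (adjusted p = 0.015), and Abcg1, a cholesterol exporter, fell by 0.81. Abca1, the other main cholesterol exporter under LXR, stood at -0.03 (adjusted p = 0.905). The second LXR gene, Nr1h2, stood at 0.0045. Adipocytes and macrophages both express LXRα, and the adipocyte markers beside it were all above 0, with 2 of 9 called higher (Plin1 and Pparg) and a summed level of 606978 to 785138 in WT and of 876341 to 914112 in Zip13-KO. Their part in these differences was not tested.

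Acp2 was slightly lower. Its brightest probe (A_52_P30550, NM_007387) read 9.55, 9.31 and 9.17 in WT and 9.03, 8.98 and 9.02 in Zip13-KO. The genotypes did not overlap, and WT replicate 1 was the highest, as for Spi1. The difference was -0.33 (95% confidence interval -0.60 to -0.064, adjusted p = 0.0611 from limma), which did not pass. A second probe gave -0.32 (adjusted p = 0.148 over all probes). Of 20 other lysosomal proteins, all tested, 3 fell and 1 rose, with a median of -0.25. The shares over all genes tested were 8.38% called lower and 10.3% called higher. Lipa, the lysosomal acid lipase, fell 2.01-fold (adjusted p = 0.0268 from limma), and on the log2 scale Hexa fell by 0.63 and Gusb fell by 0.59, while Galc, the galactosylceramidase, rose by 0.60. Acp5, the tartrate-resistant acid phosphatase, stood at 0.46.

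The probes of Madd differed in direction. The bright probe (A_55_P2112424, NM_001177720) read 15.14, 15.04 and 15.20 in WT and 15.38, 15.15 and 15.30 in Zip13-KO, and the genotypes overlapped. Its difference was 0.15 (95% confidence interval -0.080 to 0.37, adjusted p = 0.255 from limma). The dim probe, for another transcript (A_52_P357309, NM_145527), read 5.69, 5.63 and 5.96 in WT and 5.26, 5.18 and 4.84 in Zip13-KO, without overlap. It was called lower in the fit over all probes (difference -0.67, SE 0.15, adjusted p = 0.0244). Its processed signal, with background already subtracted, was 26.8 to 67.5 units, of a size like the local background of 34 to 51 units. The spot was flagged well above background on all 6 arrays. Averaging the pair of probes turned the gene's difference to -0.26. The 15 partners of MADD, all tested, held 1 gene that fell, Rab27b (-0.92, adjusted p = 0.0484), and 2 that rose, the Rab3 substrate Rab3a (0.79, adjusted p = 0.00816) and the kinesin Kif1b (0.63), with a median of 0.034. Over all genes tested, 8.38% were called lower and 10.3% were called higher. Tnfrsf1a, the receptor that MADD binds, stood at -0.18.

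**Figure D2:**
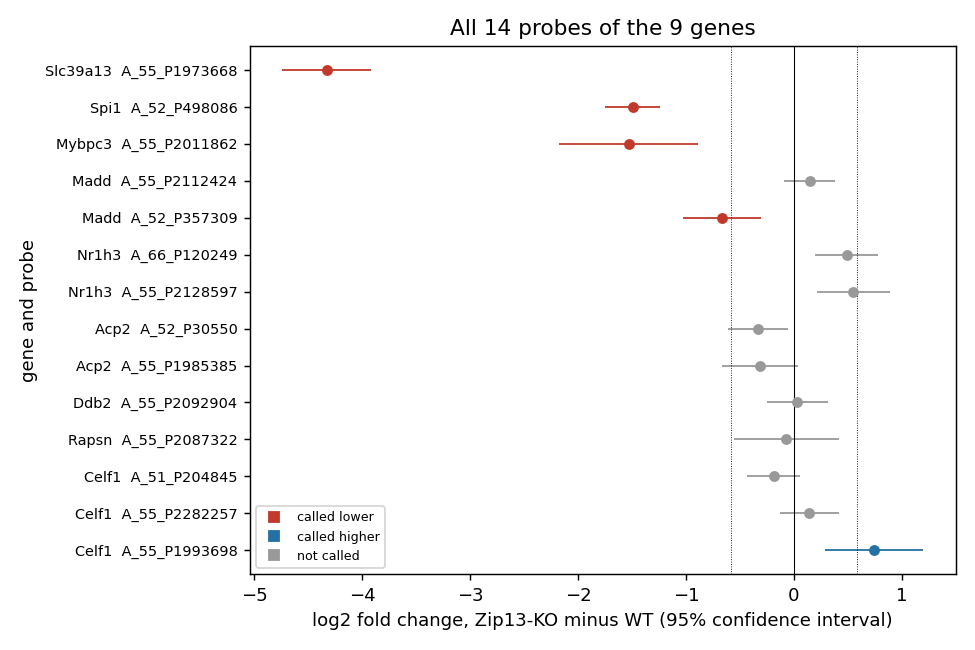
Difference of each of the 14 probes of the 9 genes, as log2 Zip13-KO minus WT on the horizontal axis with bars for the 95% confidence interval from limma over 33033 probes, probes of a gene ordered by brightness and dotted lines at ±0.58. Both probes of Nr1h3 lie above 0 and both of Acp2 below it, while those of Madd lie on either side of 0, as do the 3 of Celf1.

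Ddb2 was not called. It read 9.29, 9.30 and 9.63 in WT and 9.45, 9.46 and 9.41 in Zip13-KO, with the mutants inside the range of WT. The difference was 0.033 (95% confidence interval -0.24 to 0.30, adjusted p = 0.839 from limma), and it turned below 0 without WT replicate 1 (-0.027) or WT replicate 2 (-0.020). Of its 24 partners in nucleotide excision repair, all tested, none was called, and the differences ran from -0.23 for Rpa1, a subunit of the single-strand DNA-binding complex, to 0.58 for Cul4b, a cullin of the ubiquitin ligase that contains DDB2. By limma, 9 of the 24 had an unadjusted p under 0.05 and 7 an adjusted p under 0.05, all of them with changes under 1.5-fold. Over all genes tested these shares were 47.2% and 34.5%. Ddb1, the direct partner of DDB2, stood at 0.026 and Xpc, which takes over the lesion from it, at 0.32 (adjusted p = 0.0379).

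Rapsn was likewise not called. It read 13.74, 13.15 and 12.97 in WT and 13.22, 13.16 and 13.26 in Zip13-KO, so WT replicate 1 was highest of all 6 arrays and WT replicate 3 lowest. The difference was -0.072 (95% confidence interval -0.56 to 0.41, adjusted p = 0.798 from limma), and without WT replicate 1 it was 0.15. The genes that rapsyn works with at the neuromuscular junction were in part not detected: of 13, 6 were not well above background on all 3 arrays of either genotype and were not tested, among them the acetylcholine receptor subunits Chrna1, Chrnd, Chrne and Chrng and the receptor kinase Musk. Of the 7 tested none passed the test (2 had an unadjusted p under 0.05 from limma), with values from -0.89 for the agrin receptor Lrp4 (adjusted p = 0.27) to 0.49 for Chrnb1.

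Celf1 gave a different answer at each probe, although all 3 carry the same accession (NM_001244891). The brightest (A_51_P204845) read 11.85, 11.97 and 12.15 in WT and 11.80, 11.81 and 11.79 in Zip13-KO, a difference of -0.19 (95% confidence interval -0.42 to 0.046, adjusted p = 0.172 from limma). The second (A_55_P2282257) read 10.05, 10.18 and 10.42 against 10.36, 10.38 and 10.33, with overlap and a difference of 0.14. The dimmest (A_55_P1993698) read 8.00, 8.53 and 8.63 against 9.24, 9.21 and 8.93, and was called higher in the fit over all probes (0.74, SE 0.19, adjusted p = 0.034). The direction of Celf1 therefore depended on the probe, and the mean of its probes gave 0.23. Of 8 related RNA-binding proteins of the CELF and MBNL families 7 were tested and none passed the test (1 had an unadjusted p under 0.05 from limma), with 0.34 for Celf6 as the highest value. Celf3 was well above background on the 3 WT arrays and on no Zip13-KO array, so it was tested on its WT signal alone, and its arrays overlapped between genotypes (adjusted p = 0.0906).

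**Figure D3:**
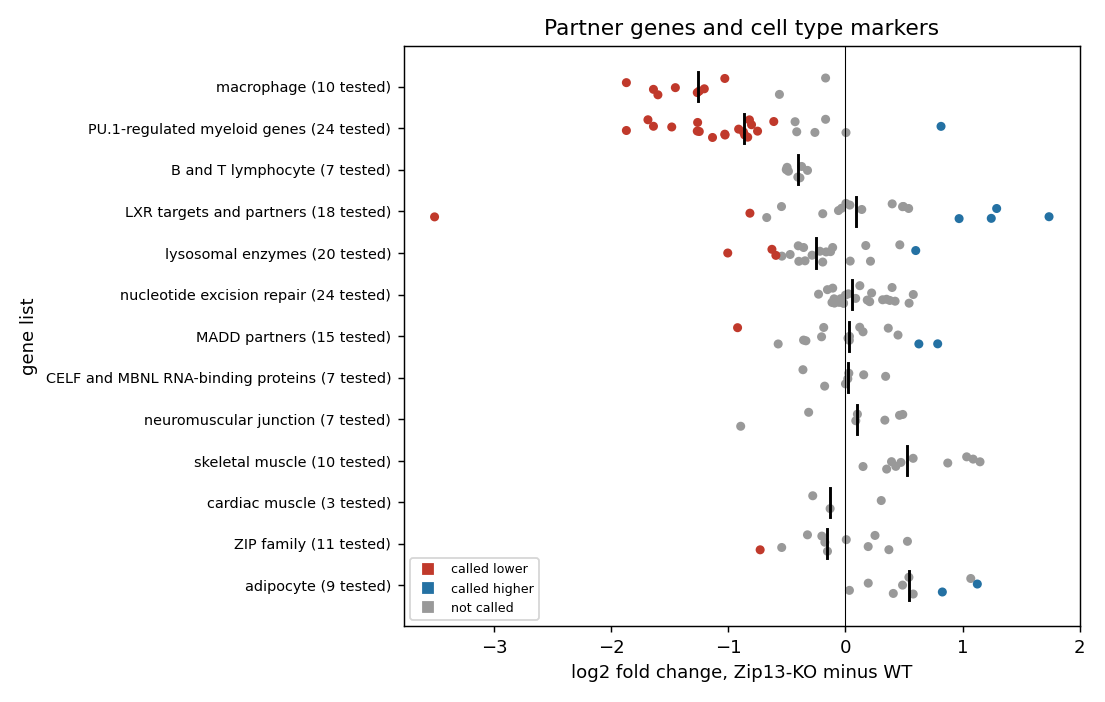
Differences (log2 Zip13-KO minus WT, horizontal axis) of the tested genes in each list of partner genes or cell type markers, 1 point per gene with a black line at the list median, red for called lower, blue for called higher and grey for not called. The macrophage and PU.1-regulated lists, which have genes in common, sit furthest to the left, with medians of -1.26 and -0.87. The nucleotide excision repair and CELF and MBNL lists are centred near 0.

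Slc39a13, Spi1 and Mybpc3, all called lower, are consecutive on the chromosome, and beyond them the differences were mixed in direction. Of the 5 nearest genes on each side of Slc39a13, all 10 were tested, with a median of -0.059. Spi1 and Mybpc3 fell and none rose, against 8.38% called lower and 10.3% called higher over all genes tested. Mybpc3 was kept for testing through its WT arrays alone, and with a normexp correction it was -0.50 and not called. By limma, 3 of the 10 were higher at an unadjusted p under 0.05, against 25.3% of all genes tested. Both genes that fell lie directly beside each other on the side of higher coordinates. On the other side the nearest gene, Psmc3, stood at -0.045 (adjusted p = 0.645 from limma), followed beyond Rapsn and Celf1 by Ptpmt1, a mitochondrial phosphatase, at 0.44, with an adjusted p of 0.0215 but under the fold threshold, and Kbtbd4 at 0.28. Madd, which follows Mybpc3, overlapped between genotypes at its bright probe. Its dim probe was called lower in the fit over all probes (-0.67, adjusted p = 0.0244 from limma). In the RefSeq table the annotated spans of Nr1h3 and Acp2 overlap, as do those of Acp2 and Ddb2, and the files do not say whether a probe lies in a shared part.

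Of the 25 nearest genes on each side, 47 of 50 had a named probe and 36 were tested. The untested genes included 12 of the 13 olfactory receptor genes in the window. Besides Spi1 and Mybpc3, Ptprj, a receptor tyrosine phosphatase of leukocytes and other cells that lies 12 genes away, fell by 1.22 (adjusted p = 0.00735 from limma). Together 3 of 36 tested genes fell, 8.33%, against 8.38% of all genes tested. With all 6 arrays required above background, which leaves Mybpc3 out, 2 neighbours were called lower. The genes that rose numbered 6, 16.7% of the 36, against 10.3% of all genes tested. They were Mtch2, a protein of the outer mitochondrial membrane (0.72), Ndufs3, a subunit of respiratory complex I (0.66), Pex16, a peroxisome biogenesis factor (0.87), the secreted protein gene C1qtnf4 (0.84), Pacsin3, a membrane-bending protein (0.68), and 1700029I15Rik (1.26). Mtch2, C1qtnf4 and Ndufs3 are consecutive in the table. The count of genes that fell was 5 without WT replicate 3, the added genes being Creb3l1 (-1.17) and 1110051M20Rik (-0.66), and 0 with the slide column as a term.

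**Figure D4:**
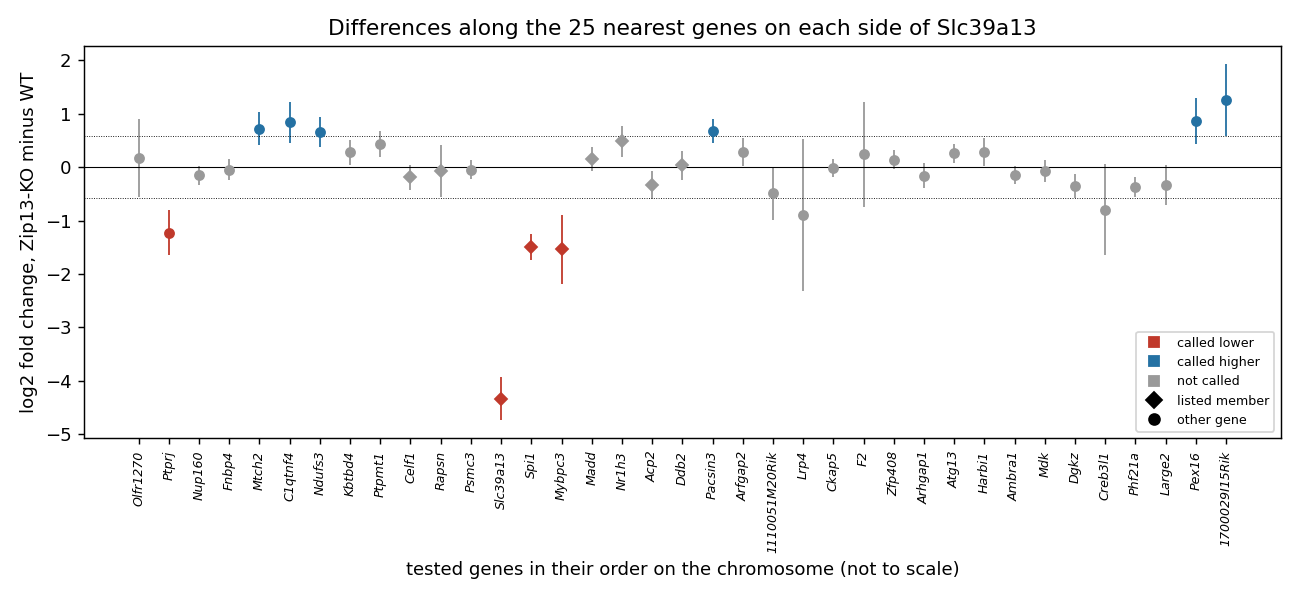
Difference (log2 Zip13-KO minus WT, vertical axis) with its 95% confidence interval from limma for Slc39a13 and the 36 tested genes among the 25 nearest on each side, in the order of the chromosome and not to scale, with diamonds for the 9 listed genes and dotted lines at ±0.58. Slc39a13 stands at -4.33 and Spi1 and Mybpc3 beside it are near -1.5. Madd, shown by its brightest probe, and Psmc3, just outside them, lie near 0.

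Over the 6 arrays, the profile of Spi1 was very like that of Slc39a13, with a Pearson r of 0.9948. Among all genes tested, the profiles most like that of Slc39a13 were those of Clspn, a replication checkpoint gene (r = 0.9992), Lgals3, which encodes the macrophage-rich lectin galectin-3 (0.9990), Nrros (0.9983), Arpc2, a subunit of the actin-nucleating complex (0.9980), and Rab19 (0.9968). Clspn, Lgals3, Nrros and Arpc2 were called lower. For Spi1 they were Cotl1, a protein of the actin skeleton (r = 0.9996), Ulbp1, Rap1b, Nt5c and Rab20, and for Mybpc3 they were Crybg1 (r = 0.9929), Il21r, Phf20l1, Mthfd2 and Rock1. These values are given as a description, since 6 arrays of 2 genotypes share the genotype difference that sets most of each r.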

How the data were processed

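Total RNA of iWAT, 3 samples of WT and 3 of Zip13-KO mice, was hybridized, in 1 colour, to the Agilent 8x60K mouse gene expression array (SurePrint G3). Per the file headers, the authors' deposited intensity values came from Feature Extraction 11.5.1.1; the processed signal intensity is background-subtracted and not normalized between arrays, and flags of 0 or 1 mark spots well above background, saturated or outlying. The authors' deposited table holds quantile-normalized log2 values; its ranks matched the raw median signal (rank correlation 1), not the processed signal (0.974 to 0.987), and its column medians were 6.23 to 6.24. Its scale and direction followed the scanner values.

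Control and outlier spots were left out, log2 processed signals of a probe's spots were averaged, and arrays were quantile normalized. Probes well above background on all 3 arrays of a genotype were kept (33033 of 55681). Names came from RefSeq accessions (GRCm38.p6), which named 28331 probes; the design was annotated on mm9, so of genes only their order is given, and coordinates (GRCm38.p6) are given only with the RefSeq promoter sequences. The brightest probe stood for a gene. Genotypes were compared with limma 3.58.1 (lmFit, eBayes) in R 4.3.3, and single values also by an exact permutation test with Python (scipy 1.17.1, pandas 2.3.3). The limma fit and the call thresholds were tried on simulated normalized values of 15302 genes. They found 66% of changes of 1 and 90% of changes of 2 on the log2 scale, with 11 false calls. Averaging of spots, normalization, the background filter and the choice of probe were not simulated. The simulated noise was independent, without a difference in depth or slide column between genotypes, so these figures need not hold for the real arrays.

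The members and lists were chosen with earlier results of these data known. The genes named were the 9 members, the 5 nearest genes on each side, called genes among the 25 nearest on each side, the extremes of each list and the 5 most alike profiles; other list genes were named after their values were seen. The methods of the study use a t-test combined with a median-ratio test; the methods' t-test was run as an alternative, beside other scalings, filters, background corrections, probe summaries, thresholds, the slide column, a replicate block and leaving out each array. The number of arrays limits the precision.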

Additional observations from a re-analysis of the deposited data

How the results depend on the processing

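Slc39a13, Spi1, Mybpc3, Nr1h3 and Acp2 kept their direction under every alternative that could be run. Slc39a13 ranged from -4.46 to -3.69 and Spi1 from -1.57 to -1.05. Mybpc3 ranged from -1.74 to -0.50; it could not be tested when all 6 arrays had to be above background, its value was -0.64 with no background correction and -0.63 in the deposited table, and it was not called with normexp (-0.50) or at an adjusted p under 0.01. The slide column mattered most. Using column 1 alone, Slc39a13 was -4.19, Spi1 -1.50 and Mybpc3 -1.41. That column holds 1 Zip13-KO array, assumed to vary like the WT arrays, so calls among the 9 genes and the neighbours are not counted there. With the column as a term, 1 of the 9 was called lower, and 0 neighbours were called lower or higher. Over all genes, 7 were lower and 0 higher with the column as a term. Both settings leave few degrees of freedom.

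Of the 9 genes, 1 was called higher with 75th percentile scaling (Nr1h3, 0.60) and with no fold threshold (Nr1h3, 0.49). When probes replaced genes, 1 of the 14 probes was called higher. It was the dimmest probe of Celf1 (0.74), and neither probe of Nr1h3 was called. Of the neighbours, 5 were called lower with no fold threshold and 3 to 5 when an array was left out; 1 was called higher at an adjusted p under 0.01 and 11 with 50 genes on each side. The number of the 9 called lower was 3 whichever array was left out. Signs turned for genes that were not called: Madd (-0.26) and Celf1 (0.23) with the mean of their probes, Rapsn with 75th percentile scaling (0.046), the difference of medians (0.070) or an array left out (-0.23 to 0.15), and Ddb2 with an array left out (-0.027 to 0.15). The causes were not tested.

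Over all genes, 721 were lower and 1008 higher by the methods' t-test after Benjamini-Hochberg adjustment (1246 and 1552 unadjusted), 505 and 707 at an adjusted p under 0.01, 2330 and 2952 with no fold threshold, 768 and 955 without Zip13-KO replicate 1, and 785 and 1020 without Zip13-KO replicate 2. The deviations of same-numbered arrays had correlations of -0.021, 0.038 and -0.080, and those of differently numbered arrays ran from -0.17 to 0.18. With 3 arrays per genotype, these values cannot show whether the numbers pair the samples. With the replicate block, Slc39a13 was -4.33 (adjusted p = 0.0246 from limma), and 3 of the 9 were called lower and 0 higher. Over all genes, 1051 were then lower and 1278 higher.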
